A study of Mus musculus with 8 samples.

Results

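The genes described here encode the channels and store sensors through which calcium reaches the cytosol of a smooth muscle cell. They are the inositol trisphosphate (IP3) receptors Itpr1, Itpr2 and Itpr3, the store sensors Stim1 and Stim2, the store-operated channels Orai1, Orai2 and Orai3, and the voltage-gated channel pores Cacna1c and Cacna1g. Every probe that the array annotation assigns to one of these 10 genes was taken, which gave 15 of the 25697 probes. They belong to 8 genes. Itpr1 and Stim2 were not analysed here. Of the 15 probes, 7 were above background and entered the test (4 or more of the 8 arrays had to reach a detection p below 0.05), 1 for each of 7 genes, and the other 8 were not above background on any array. Orai2 had 1 probe, and it was among those 8.

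Samples were primary vascular smooth muscle cells of the carotid artery of male C57bl6 mice, labelled PMCA4 knockout (KO, 4 arrays) or PMCA4 wild type (WT, 4 arrays). PMCA4, encoded by Atp2b4, is a calcium pump of the plasma membrane. The cells of both genotypes had been synchronised through serum, restimulated with serum plus the smooth muscle mitogen PDGF-BB, stained with Hoechst and sorted by flow cytometry for early G1, and total RNA was hybridised to Illumina bead arrays. The labels give neither the deleted part of Atp2b4 nor the number of mice or cultures behind the arrays, so p-values measure the spread between these arrays, which may be technical.

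Calcium enters the cytosol of smooth muscle by release from the sarcoplasmic reticulum or by entry across the plasma membrane. Phospholipase C makes IP3 when receptors for growth factors or vasoconstrictors are engaged, and IP3 opens the IP3 receptors of the reticulum. When the store empties, STIM proteins in the reticulum membrane sense the loss and open ORAI channels in the plasma membrane. Voltage-gated channels admit calcium on depolarisation: Cacna1c is the L-type pore of contractile smooth muscle, and Cacna1g is a T-type pore that opens at more negative potentials.

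Between 11697 and 11987 probes were above background per array. Over all tested probes 87.3% of the variance lay on the first principal component, along which KO and WT arrays separated. The only Atp2b4 probe above background did not mark the knockout. Its log2 intensity averaged 6.95 ± 0.27 in KO cells and 6.89 ± 0.14 in WT cells (SD, n = 4 each), and the limma adjusted p was 0.719. The labels do not give the deleted part, so the genotypes could not be checked with this probe. The direction of each difference rests on the array labels. Of 10 smooth muscle markers on the array, 8 were detected, with Cnn1 and Synpo2 not above background. Sums of linear signal here and below were taken over all markers of a list on the array, those at background included. For smooth muscle the sum ran from 66699 to 69974 in KO arrays, against 35440 to 41082 in WT arrays. Most of that sum was 1 Acta2 probe, with a mean deposited intensity of 62460 in KO arrays and 36971 in WT arrays. Its log2 difference was 0.83, against 2.13 to 2.79 for the other 3 tested Acta2 probes, so the size of the shift depends on the probe. Of 10 adventitial fibroblast markers 9 were detected, and their sum ran from 60202 to 63533 in KO arrays, against 4159 to 4366 in WT arrays. The part of this shift in the results below was not tested. In bulk RNA, fewer cells of a type and less RNA per cell cannot be told apart. Of 9 endothelial markers on the array 3 were detected, with Pecam1, Cdh5, Kdr, Tek, Tie1 and Vwf at background on all arrays, and their sum ran from 606 to 616 in KO arrays, against 580 to 621 in WT arrays. Of 8 leukocyte markers 3 were detected, with Ptprc, Adgre1, Cd79a, Itgam and Tyrobp at background on all arrays, and their sum ran from 463 to 481 in KO arrays, against 467 to 557 in WT arrays. Those above background on 4 or more arrays were Flt1 and Plvap among the endothelial and Cd14 among the leukocyte markers on all 8 arrays, and Lyz2 and Cd3e on the 4 KO arrays and no WT array. Of 7 Schwann cell and neuron markers 3 were detected, with S100b, Tubb3, Snap25 and Rbfox3 at background on all arrays, and their sum ran from 1106 to 1196 in KO arrays, against 500 to 612 in WT arrays.

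Itpr3, an IP3 receptor gene, was 3.30-fold lower in KO cells. By 1 of its 3 probes, the T-type pore gene Cacna1g was at least 3.99-fold higher in KO cells in the main setting. Orai1, the store-operated pore gene, was 1.59-fold higher. Stim1 was 1.16-fold higher, a difference near the threshold. Itpr2, Orai3 and Cacna1c did not pass. By limma across all probes (adjusted p under 0.05), 4 of the 7 tested genes thus passed, 3 higher and 1 lower in KO. Cacna1g, among the 3, was detected in KO only and entered the test through those arrays, so it had to be higher. It is not support for these counts. Of all 8302 tested genes, 57.6% passed, 26.9% higher and 30.7% lower, so the share of channel genes past the threshold was near that of all genes. Over single probes the share was 56.3%. The 4 arrays of each genotype did not overlap for Itpr3, Orai1 and Cacna1g, 3 of 7, against 53.5% of all genes and 51.5% of all probes. For the same reason as above, Cacna1g is not support for that count either. By size, 3.79% of all tested genes had a larger absolute log2 difference than Itpr3 and 19.4% a larger one than Orai1. Cacna1g, with a bound only, was not ranked.

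**Figure D1:**
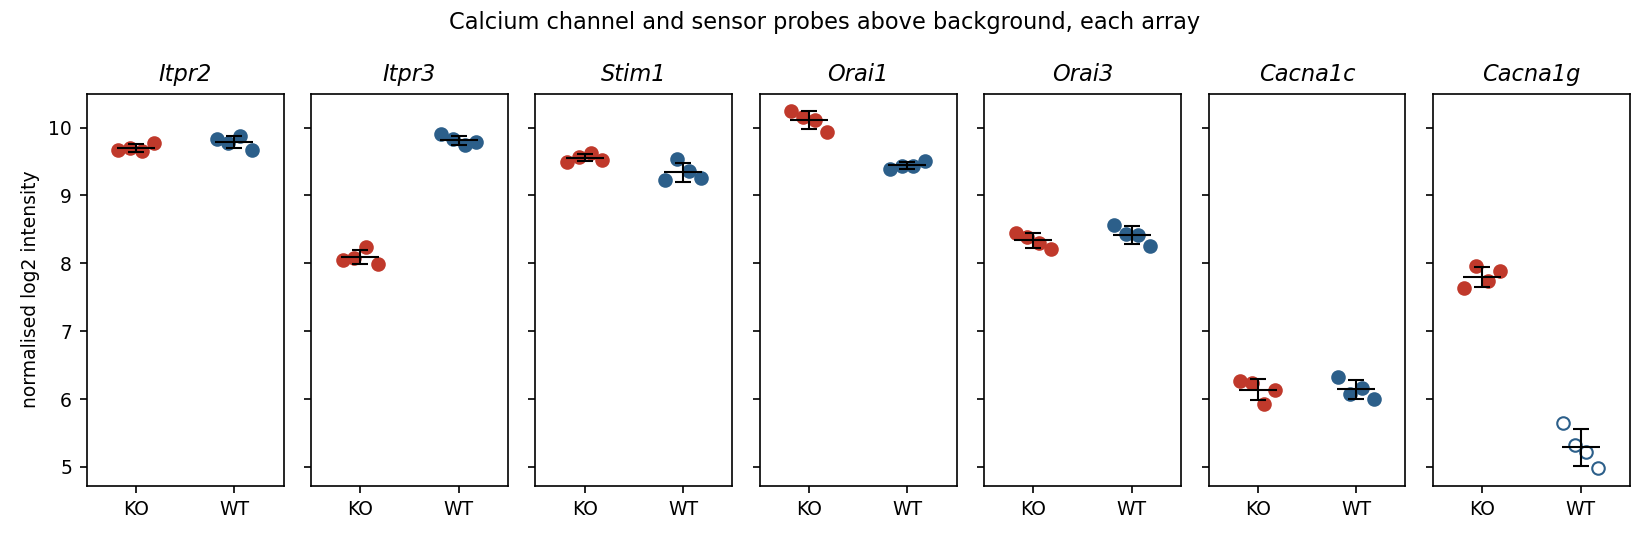
Normalised log2 intensity of the 7 probes above background, with 1 panel per gene, KO arrays left and WT arrays right. Points are single arrays, filled where the detection p was under 0.05, and bars are the mean ± SD of 4 arrays. KO and WT points separate for Itpr3, Orai1 and Cacna1g, and the WT points of Cacna1g are below background.

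The plot of values by array shows tight groups for most genes. The SD of 4 arrays lay between 0.05 and 0.15 on the log2 scale for every gene and genotype in it, with the exception of Cacna1g in WT (0.27), where the probe was below background. Signals of different probes were not ranked against each other, since each probe has its own efficiency.

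IP3 receptors release calcium from the reticulum, and the isoforms differ in their affinity for IP3. The single Itpr3 probe (ILMN_1228385) gave deposited intensities of 241, 260, 286 and 242 in KO arrays, against 968, 940, 805 and 846 in WT arrays. The highest KO array was far below the lowest WT array. On the normalised log2 scale the values were 8.05, 8.08, 8.24 and 7.99 in KO cells, against 9.90, 9.83, 9.75 and 9.78 in WT cells. Itpr3 remained detected on every KO array, so the transcript was lower but still measurable. The log2 difference was -1.72 (SE 0.070, 95% confidence interval from -1.88 to -1.57, limma adjusted p = 1.96e-08), a 3.30-fold fall with an interval from 2.97-fold to 3.68-fold.

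Itpr2, the isoform with the highest affinity for IP3, was represented by 3 probes. Its probe ILMN_3155180 gave log2 values of 9.66, 9.70, 9.66 and 9.77 in KO cells, against 9.84, 9.78, 9.88 and 9.67 in WT cells. These ranges overlapped. The difference was -0.09 (95% confidence interval from -0.24 to 0.05, limma adjusted p = 0.254). For this probe on these arrays the interval ran from a 1.18-fold fall to a 1.04-fold rise. The other 2 Itpr2 probes had detection p-values from 0.124 to 0.589 and from 0.243 to 0.317 in KO arrays, and from 0.0702 to 0.187 and from 0.187 to 0.340 in WT arrays, so neither gave a level.

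Both IP3 receptor genes were measured on the same arrays, so their changes could be set against each other. The log2 difference between the Itpr3 and Itpr2 probes within an array averaged -1.61 ± 0.15 in KO cells and 0.02 ± 0.11 in WT cells (SD, n = 4 each). It shifted by -1.63 between genotypes (exact two-sided permutation p = 0.0286, adjusted p = 0.0286 over 3 pairs of paralogs), the smallest p that 4 arrays against 4 can give. The IP3 receptor genes thus changed unequally between genotypes, though gene pairs outside these 3 were not compared. Of all tested genes, 53.5% by themselves had arrays that did not overlap between genotypes.

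The upstream windows of these paralogs, which diverged between genotypes, are shown from RefSeq (GRCm38.p6) as the 250 bases before a start site, 5′ to 3′ on the gene's strand. Itpr3 is at chr17:27057054-27057303 (plus strand) and Itpr2 at chr6:146502224-146502473 (minus strand). The start site used need not be the outermost of the gene. The Itpr3 window lies inside the annotated span of Itpr3, which begins at 27057002. The Itpr2 window overlaps the span of Itpr2, which ends at 146502258. Capitals mark the GC box GGGCGG and the NFAT core GGAAA, searched on both strands.
Itpr3: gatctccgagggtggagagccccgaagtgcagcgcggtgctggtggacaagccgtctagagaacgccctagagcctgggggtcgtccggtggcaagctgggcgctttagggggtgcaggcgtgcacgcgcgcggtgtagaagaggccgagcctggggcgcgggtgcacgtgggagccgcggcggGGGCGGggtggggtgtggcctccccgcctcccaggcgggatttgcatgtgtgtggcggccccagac
Itpr2: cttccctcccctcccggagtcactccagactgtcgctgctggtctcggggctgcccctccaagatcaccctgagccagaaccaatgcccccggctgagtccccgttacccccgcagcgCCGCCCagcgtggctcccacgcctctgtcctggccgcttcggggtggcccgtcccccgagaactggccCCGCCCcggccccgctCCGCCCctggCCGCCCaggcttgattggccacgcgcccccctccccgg
The Itpr3 window held 1 GC box and the Itpr2 window 4, and neither held the NFAT core. A GC box was in 32.7% and the NFAT core in 55.6% of all 32851 promoter windows of that length. The Itpr3 window also held the E-box CACGTG once (6.02% of all windows), and the Itpr2 window held none. Both windows were GC-rich, at 72.0% and 74.4%, against a median of 52.4% over all windows. Neither held TATAAA (12.4% of all windows), the cyclic AMP response element TGACGTCA (1.55%) or a CArG box (1.47%), the motif bound by serum response factor.

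Store-operated entry is carried by ORAI channels, of which ORAI1 is the pore of the classical calcium release-activated current. The Orai1 probe (ILMN_1236368) gave deposited intensities of 1147, 1134, 1095 and 957 in KO arrays, against 677, 710, 644 and 695 in WT arrays. All KO arrays were above all WT arrays, and the lowest of them was KO replicate 4. The log2 values were 10.24, 10.16, 10.11 and 9.93 in KO cells, against 9.39, 9.44, 9.44 and 9.50 in WT cells. The log2 difference was 0.67 (SE 0.074, 95% confidence interval from 0.50 to 0.83, limma adjusted p = 3.23e-05), a 1.59-fold rise with an interval from 1.42-fold to 1.78-fold.

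Orai3, which can join ORAI1 in mixed channels, as known from human cells, did not pass. Its log2 values were 8.45, 8.39, 8.30 and 8.21 in KO cells, against 8.57, 8.44, 8.42 and 8.25 in WT cells, and the groups overlapped. The difference was -0.08 (95% confidence interval from -0.27 to 0.10, limma adjusted p = 0.424). On these arrays the interval ran from a 1.20-fold fall to a 1.07-fold rise. Orai2, a further channel of the family, had detection p-values from 0.511 to 0.821 in KO arrays and from 0.455 to 0.701 in WT arrays. Its deposited intensities were below 0 on every array, so no difference could be measured.

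The log2 difference between the Orai1 and Orai3 probes averaged 1.77 ± 0.04 in KO cells and 1.02 ± 0.18 in WT cells (SD, n = 4 each). The shift of 0.75 gave an exact two-sided permutation p of 0.0286 (adjusted p = 0.0286 over 3 pairs). With the same limit as for the IP3 receptor genes, Orai1 and Orai3 therefore changed unequally. Their upstream windows are given for the same reason as those of the IP3 receptors, Orai1 at chr5:123014824-123015073 (plus strand) and Orai3 at chr7:127769565-127769814 (plus strand), with the same capitals.
Orai1: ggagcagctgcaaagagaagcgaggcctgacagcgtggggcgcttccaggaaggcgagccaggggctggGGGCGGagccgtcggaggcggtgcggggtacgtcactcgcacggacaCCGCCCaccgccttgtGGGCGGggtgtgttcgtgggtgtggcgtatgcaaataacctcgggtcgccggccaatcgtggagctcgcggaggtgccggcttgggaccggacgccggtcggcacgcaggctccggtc
Orai3: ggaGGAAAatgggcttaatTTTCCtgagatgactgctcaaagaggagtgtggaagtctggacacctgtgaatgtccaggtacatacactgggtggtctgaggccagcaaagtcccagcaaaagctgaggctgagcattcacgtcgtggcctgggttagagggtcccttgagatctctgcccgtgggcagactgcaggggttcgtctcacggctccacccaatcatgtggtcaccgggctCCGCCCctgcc
The Orai1 window held 3 GC boxes and no NFAT core, and the Orai3 window 1 GC box and the NFAT core at 2 positions. Orai1 had 30 CpG dinucleotides and 70.8% GC, and Orai3 had 7 and 57.2%, against medians of 6 and 52.4% over all windows. The E-box was found in neither. These matches describe the letters of the windows only.

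STIM1 is the reticulum sensor that opens ORAI channels. The Stim1 probe (ILMN_2734646) gave log2 values of 9.50, 9.57, 9.62 and 9.53 in KO cells, against 9.22, 9.54, 9.35 and 9.25 in WT cells. WT replicate 2 lay among the KO arrays, so the groups overlapped. The log2 difference was 0.21 (SE 0.078, 95% confidence interval from 0.04 to 0.39, limma adjusted p = 0.0399), a 1.16-fold rise. This call was lost without KO replicate 1, 2, 3 or 4 (adjusted p = 0.0508, 0.0811, 0.0970 and 0.0632) and without WT replicate 1, 3 or 4 (adjusted p = 0.0940, 0.0650 and 0.100). It was kept without WT replicate 2, where the difference was 0.28 (adjusted p = 0.00787).

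**Figure D2:**
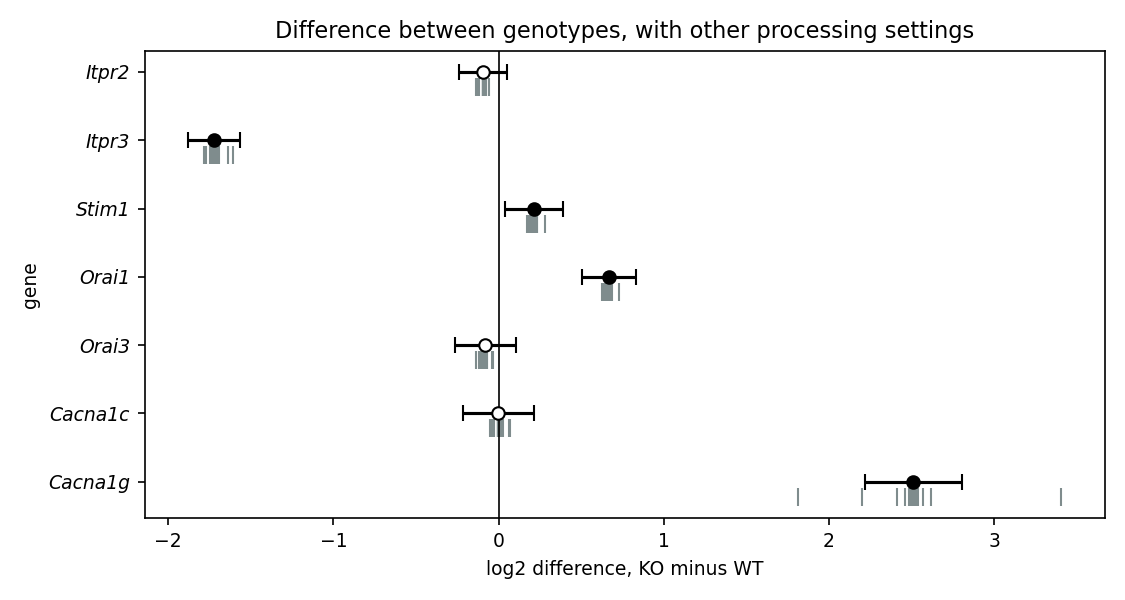
Log2 difference between genotypes (KO minus WT, horizontal axis) for the 7 tested genes. Points are the fitted difference with its 95% confidence interval, filled where the adjusted p was under 0.05, and grey ticks are the same difference under the other processing settings. Itpr3 and Orai1 stay clear of 0 in every setting, and Stim1 lies close to it. Cacna1g, which entered the test through its KO arrays only and so had to differ, has the widest span, from 1.81 to 3.40.

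Cacna1g forms the pore of a T-type calcium channel, a kind known from dividing vascular smooth muscle. Its probe ILMN_1241838 gave deposited intensities of 177, 236, 199 and 224 in KO arrays, against 32.3, 18.5, 12.8 and 0.448 in WT arrays. It was above background on all 4 KO arrays and on none of the WT arrays, where the detection p ran from 0.0689 to 0.388. The log2 values were 7.64, 7.96, 7.73 and 7.88 in KO cells, against 5.64, 5.32, 5.22 and 4.99 in WT cells. With each WT array set to the higher of its own value and its lowest detected signal, Cacna1g was at least 3.99-fold higher in KO. The probe entered the fit only through the KO arrays, so it had to differ, and its p-value is not given as support. With the WT side within background, the fitted log2 difference moved with the background treatment. It lay between 1.81 with an offset of 50 and 3.40 with no further correction, and the first of these is less than the bound. In the setting with no further correction, normalised intensities below 16 were set to 16.

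The other 2 Cacna1g probes did not show this difference at a measurable level. ILMN_1256998 had deposited intensities of 3.99, 10.2, 16.2 and 23.7 in KO arrays, against -3.64, -2.72, -18.3 and -7.88 in WT arrays. These groups did not overlap, but the detection p was from 0.117 to 0.307 in KO arrays and from 0.447 to 0.883 in WT arrays, so both were below background. ILMN_1251322 had detection p-values from 0.762 to 0.980 in KO arrays and from 0.633 to 0.971 in WT arrays, and its groups overlapped. All 3 probes carry the same annotated transcript, and their positions in it were not used here. The Cacna1g rise therefore rests on 1 of 3 probes.

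Cacna1c, the L-type pore, showed no difference beyond the spread. Its probe ILMN_2677449 was weakly above background, with detection p-values from 0.0113 to 0.0388 in KO arrays and from 0.01003 to 0.0276 in WT arrays. The log2 values were 6.26, 6.24, 5.92 and 6.13 in KO cells, against 6.33, 6.07, 6.17 and 6.002 in WT cells. The fitted difference was -0.0024 (95% confidence interval from -0.22 to 0.21, limma adjusted p = 0.985), and its sign turned under other settings. The interval spans 1.16-fold in either direction for the normalised signal. So near background it does not bound the change in transcript. The remaining 3 Cacna1c probes had detection p-values of 0.173 or more in KO arrays and of 0.198 or more in WT arrays. The pair of Cacna1g and Cacna1c was the remaining one of the 3 paralog pairs over which p-values were adjusted. Its result is not given, since Cacna1g had no measured level in WT.

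**Figure D3:**
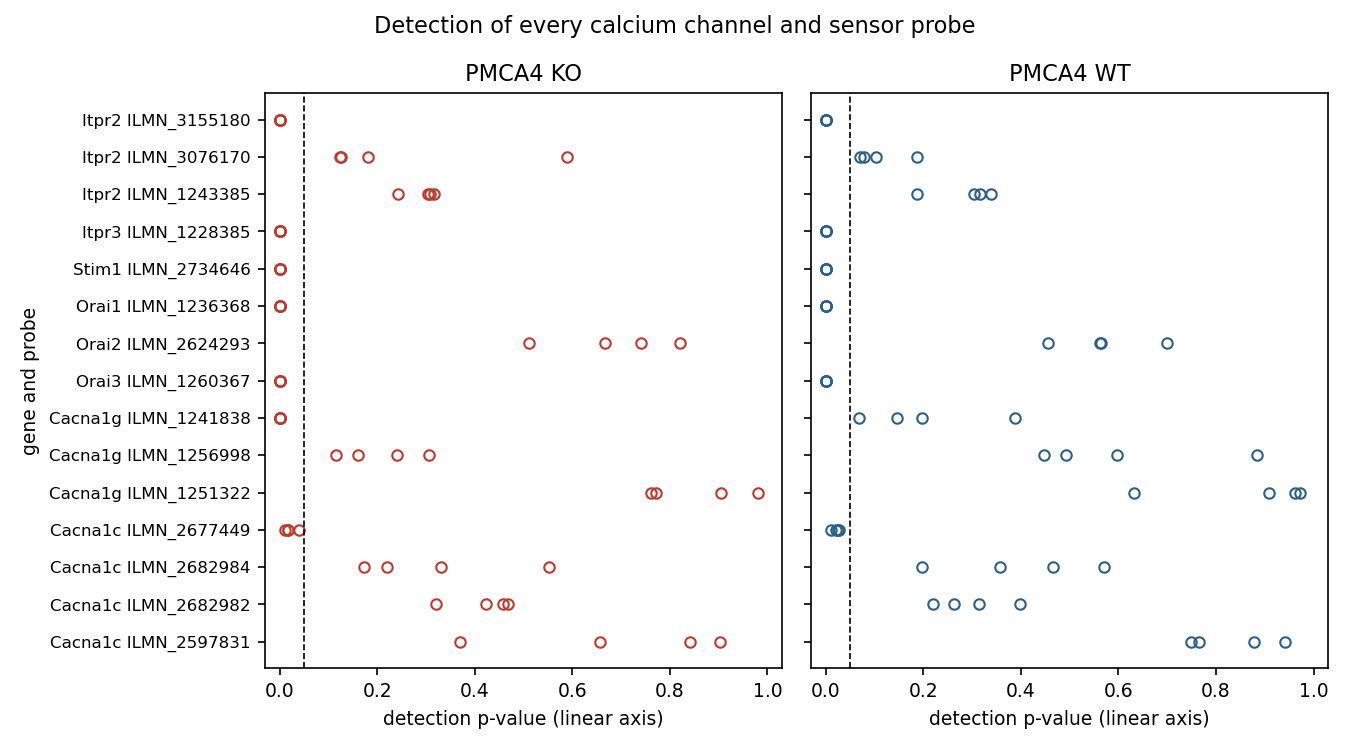
Detection p-value (horizontal axis, linear, from 0 to 1) of each of the 15 probes on each KO array (left) and WT array (right), with a dashed line at 0.05. Probes of Itpr2, Itpr3, Stim1, Orai1, Orai3 and Cacna1c lie left of the line on all arrays, Cacna1g ILMN_1241838 does so in KO only, and the other 8 probes lie right of it throughout.

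The profiles most like those of the genes of largest change were sought by Pearson correlation over the 8 arrays among 8301 other tested genes. For Itpr3 these were Ano1, a calcium-activated chloride channel (r = 0.9994, log2 difference -4.60), Ppl (r = 0.9991, -2.67) and Nme3 (r = 0.9982, -1.09). For Cacna1g, whose WT values lay within background, they were Defb42 (r = 0.9975, 1.62), Gpr107 (r = 0.9970, 0.44) and Irgm1 (r = 0.9966, 1.51). These points share 8 arrays in 2 genotypes, and 971 genes correlated above 0.95 with Itpr3 and 794 with Cacna1g.

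Other genes of calcium movement were read from 13 lists. Of 163 genes listed, 140 were on the array and 67 were tested. Of these, 19 were higher and 16 lower in KO and 32 did not pass, with a median log2 difference of 0.02, against -0.02 over all tested genes. Of all tested genes 26.9% were higher and 30.7% lower, which is the background for this count and for those of the lists below. Calls went both ways in most lists, as the plot by list shows.

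**Figure D4:**
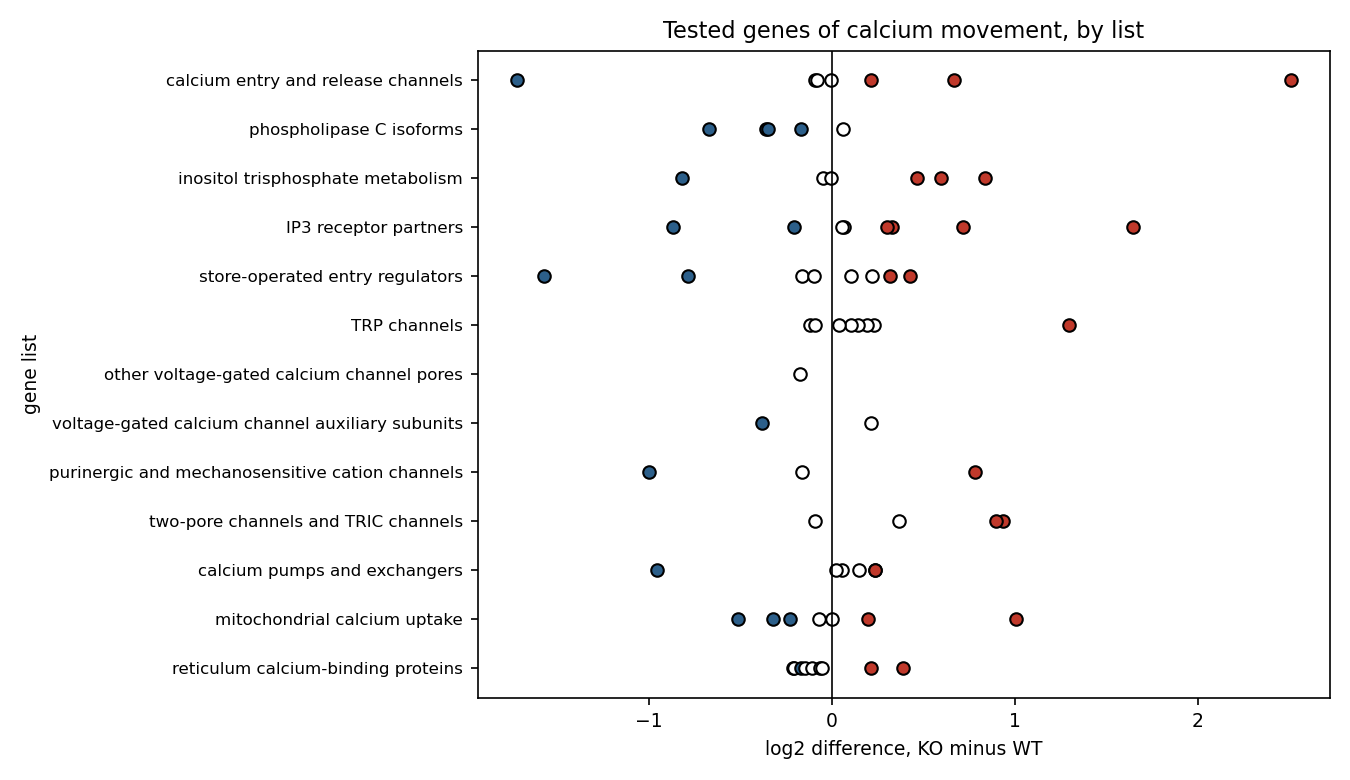
Log2 difference (KO minus WT, horizontal axis) of each tested gene, with the channels and sensors in the top row and the 12 other lists with a tested gene below. Red points are higher and blue points lower in KO with an adjusted p under 0.05, and open points did not pass. Phospholipase C isoforms that passed all lie left of 0, and the 2 two-pore and TRIC channels that passed lie right of it.

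Upstream of the IP3 receptors, 4 of 5 tested phospholipase C genes were lower in KO and 0 higher (median -0.35), against 30.7% lower of all tested genes, and 1 of the 4 calls, Plcb3, was lost in 6 of 18 recomputations. Plcd1 fell 1.28-fold (10.47 ± 0.04 in KO cells and 10.83 ± 0.09 in WT cells, SD, n = 4 each, limma adjusted p = 0.000901) and Plcd3 fell 1.27-fold. Plcg2, which acts below tyrosine kinases, was not above background in KO and was at least 1.34-fold lower. Plcg2 entered the test only through its WT arrays, so it had to be lower and is not support for the count of 4. Plcb3, coupled to G proteins, was 1.12-fold lower (limma adjusted p = 0.0338). That call was lost with the replicate number as a block (adjusted p = 0.0696) and without KO replicate 1 or 3 (adjusted p = 0.0854 and 0.0868) or WT replicate 2, 3 or 4 (adjusted p = 0.0718, 0.0744 and 0.0620). Of 6 tested genes of inositol phosphate metabolism, 3 were higher and 1 lower (median 0.23). Inpp5a, the phosphatase that ends the IP3 signal, rose 1.79-fold, Ippk rose 1.51-fold and Itpk1 rose 1.38-fold, whereas Ipmk fell 1.76-fold.

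Of 8 tested partners of the IP3 receptor, 4 were higher and 2 lower (median 0.18). Mrvi1 (Irag1), through which cyclic GMP-dependent kinase restrains IP3 receptors in smooth muscle, rose 3.13-fold (9.63 ± 0.03 in KO cells and 7.98 ± 0.14 in WT cells, SD, n = 4 each, limma adjusted p = 4.81e-08). Bcl2l1 rose 1.65-fold and Ahcyl1, which competes with IP3 for the receptor, rose 1.26-fold. Bcl2 fell 1.82-fold by its brightest probe, although its 4 tested probes did not all pass (log2 differences of the others from -0.88 to -0.35, adjusted p up to 0.0621). Of 8 tested regulators of store-operated entry, 2 were higher and 2 lower (median 0.0032). Cracr2b, an EF-hand protein related to the ORAI regulator CRACR2A, fell 2.98-fold (6.07 ± 0.30 in KO cells and 7.64 ± 0.07 in WT cells, SD, n = 4 each, limma adjusted p = 4.08e-06) and was detected on 3 of 4 KO arrays. Cav2 (caveolin 2) fell 1.72-fold. Esyt2, which tethers reticulum to plasma membrane, rose 1.34-fold, and Saraf, which inactivates store-operated entry, rose 1.25-fold.

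Among other channels, 1 of 8 tested TRP channel genes passed. Trpv2 rose 2.45-fold (7.29 ± 0.16 in KO cells and 5.99 ± 0.10 in WT cells, SD, n = 4 each, limma adjusted p = 1.13e-06). Of the 25 TRP genes on the array, 13 had no array on which they were detected. The 3 ryanodine receptor genes on the array had no tested probe, and 2 of them were not above background on any array. Of the other voltage-gated pores, 1 of 5 on the array was tested, Cacna1a, with a log2 difference of -0.17 (limma adjusted p = 0.315). Cacna2d1, an auxiliary subunit of voltage-gated channels, fell 1.30-fold, and Cacnb4, the only other tested subunit, had a log2 difference of 0.22 (limma adjusted p = 0.251). Of 3 tested purinergic and mechanosensitive channels, P2rx4 rose 1.72-fold, P2rx7 fell 2.00-fold and P2rx6 did not pass. Of 4 two-pore and TRIC channels, Tmem38b, a counter-ion channel of the reticulum, rose 1.92-fold, Tpcn1, an endolysosomal channel, rose 1.86-fold, and 2 did not pass (median 0.63).

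Genes that remove or store calcium moved in both directions as well. Of 6 tested pumps and exchangers, the sodium-calcium exchanger Slc8a1 fell 1.94-fold, the reticulum pump Atp2a2 rose 1.18-fold and Atp2c1 rose by 0.24 on the log2 scale (limma adjusted p = 0.0316). The Atp2c1 call was lost without KO replicate 1, 2 or 4 (adjusted p = 0.0635, 0.0833 and 0.0530), without WT replicate 1, 2 or 4 (adjusted p = 0.0753, 0.0860 and 0.0599) and with the replicate number as a block (adjusted p = 0.0686). It was also lost without the filter on dim probes (adjusted p = 0.0504) and with an intensity trend and robust spread (adjusted p = 0.0537). Of 7 genes of mitochondrial uptake, 2 were higher and 3 lower (median -0.07). Vdac2, a pore of the outer membrane, rose 2.01-fold, while Mcu, the uniporter pore, fell 1.43-fold, Letm1 fell 1.25-fold and Vdac3 fell 1.17-fold.

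Calcium-binding proteins of the secretory pathway showed small differences. Of 9 tested, 2 were higher and 1 lower (median -0.11). Hspa5, a chaperone of the reticulum, rose 1.31-fold (limma adjusted p = 0.0181), a call lost without KO replicate 4 or WT replicate 4 (adjusted p = 0.0501 and 0.0517). Rcn3 rose 1.16-fold. Nucb1 was 1.12-fold lower (limma adjusted p = 0.0410), but its second tested probe had a log2 difference of 0.02 (adjusted p = 0.840). The Nucb1 call was lost with median scaling (adjusted p = 0.0527), cyclic loess (adjusted p = 0.214), no filter (adjusted p = 0.0562) and the block (adjusted p = 0.0892). It was lost too without KO replicate 1, 2 or 4 (adjusted p = 0.0822, 0.0825 and 0.0965) or WT replicate 1, 2 or 4 (adjusted p = 0.0948, 0.0694 and 0.0721).

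Markers of the cell types that the culture could hold were read in the same fit. Of 7 tested smooth muscle markers 6 were higher and 1 lower in KO (median 1.21), with Mylk at least 11.7-fold and Myh11 at least 1.98-fold higher, Cald1 2.47-fold and Lmod1 2.31-fold higher. Of 9 tested fibroblast markers 8 were higher and 0 lower (median 3.46), with Dcn 109-fold, Igfbp6 31.0-fold and Serpinf1 30.4-fold higher and Lum at least 11.5-fold higher. The bounds of Mylk and Lum are for the main setting. In other settings their fitted log2 differences went down to 3.29 and 3.43, less than those bounds. Of 2 endothelial markers tested, Flt1 was 1.54-fold higher and Plvap 1.49-fold lower. Of 3 leukocyte markers, Lyz2, which has a near-identical copy, was at least 2.40-fold higher, Cd14 fell 3.34-fold and Cd3e was at least 1.87-fold higher. The 2 Schwann cell and neuron markers tested, Uchl1 and Ncam1, were 2.75-fold and 2.73-fold higher by their brightest probes. The second tested Ncam1 probe had a log2 difference of 0.65, against 1.45 for the brightest. The fitted folds of Mylk, Myh11, Lum, Lyz2 and Cd3e, which were within background in WT, moved by over 1.5 times with the background treatment, as that of Cacna1g did. These markers entered the test only through their KO arrays, so they had to be higher. The counts and medians of their lists include them and are not given as support.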

How the data were processed

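Samples were grouped by genotype from their titles, with 4 arrays each. The table deposited as non-normalised gives each probe's signal intensity on each array. Values below 0 (28.4% to 29.7% per array) show that a background had been subtracted before the authors deposited it. Detection p-values stand beside the intensities, per the file headers. The deposited log2 table has the same distribution on every array and was used as an alternative. The software behind both tables was not named in the labels or headers.

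Intensities were corrected, quantile normalised and taken to log2 with neqc of limma 3.58.1 (R 4.3.3, offset 16). The 12040 probes that reached a detection p below 0.05 on 4 or more of the 8 arrays entered lmFit and eBayes, with no block and with Benjamini-Hochberg adjustment over them. Differences and folds are KO relative to WT. A gene was read from its brightest tested probe. Where a genotype was below background on every array, the fold is a lower bound in the main setting. Its dim side is the mean over arrays of the higher of the probe's own value and the array's lowest detected value. Paralogs were compared by exact permutation over arrays. Symbols came from the platform annotation, updated by gene identifier (23978 probes named, 1719 not). Upstream windows came from RefSeq with motifs found by script, and 8 of the 10 genes had an entry. The precision is limited by the number of arrays.

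The members and gene lists were chosen with earlier results of these data known. From each list up to 4 genes past the threshold with the largest change are named. The fit was tested on simulated data. Alternatives were 2 other background treatments, cyclic loess, median scaling, the authors' deposited log2 values, 2 other filters, array weights, a trend with robust spread, averaging a gene's probes, blocking on the replicate number and leaving out each array. For the named genes of the lists these were added after seeing the data. Figures were drawn with matplotlib 3.10.9.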

Additional observations from a re-analysis of the deposited data

Results flagged for a closer look

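In 5 of 110 groups of 4 arrays checked, 1 array lay apart from the other 3 by more than the 95% limit for a single outlying value, and chance flags about 1 in 20. None of the 5 belonged to the calcium channels and sensors themselves. Plcd1 was lower in KO replicate 2 (10.41, against 10.49 to 10.50 in the other KO arrays) and higher in WT replicate 1 (10.97, against 10.78 to 10.80 in the other WT arrays). Cacna2d1 was lower in WT replicate 2 (9.89, against 10.02 to 10.04). Dcn was higher in KO replicate 4 (14.24, against 14.10 to 14.12). Cd14 was higher in WT replicate 1 (8.39, against 7.85 to 7.94). All values are normalised log2 intensities.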

How the results depend on the processing

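The calls of Itpr3 and Orai1 held with the same sign in all 18 recomputations of each (log2 differences from -1.78 to -1.61 and from 0.63 to 0.73). Cacna1g, which entered through its KO arrays, ran from 1.81 to 3.40, and Itpr2 and Orai3 passed in none of theirs. Stim1 kept its sign and was called in 8 of 18. Beside the arrays named above, its call was lost with median scaling (0.19, adjusted p = 0.0629), no filter (adjusted p = 0.0623) and array weights (0.19, adjusted p = 0.0667). Cacna1c, never called, turned to 0.013 with median scaling, 0.026 with cyclic loess, 0.016 with array weights and between 0.0053 and 0.070 without KO replicate 3, WT replicate 1 or WT replicate 3 (from -0.050 to 0.070 over all arrays left out in turn), and it was not tested at a detection p under 0.01. Atp2b4, never called, turned to -0.016 without KO replicate 1. The count of channel genes past the threshold was 3 or 4 throughout, and that of all genes was from 4403 to 4996. Without the filter on dim probes 29.8% of genes passed. Cyclic loess turned the balance of all calls to 2435 higher and 2350 lower, against 2233 and 2548. The paralog shifts without each array in turn ran from -1.69 to -1.58 (Itpr3) and 0.68 to 0.83 (Orai1). Same-numbered arrays of the genotypes correlated from -0.029 to 0.087 in their deviations from the group means, so the numbers were not taken as pairs. With the replicate number as a block 4 channel genes passed (Itpr3 -1.72, adjusted p = 3.71e-06), 4609 genes passed in all, and of 55 named probes 3 lost their call (Plcb3, Atp2c1 and Nucb1). Log2 differences of list genes near background in 1 genotype also moved over the settings, though their calls held. They ran from 0.96 to 1.56 for Trpv2 and from 0.88 to 1.48 for Lmod1. Those of Cracr2b ran from -1.87 to -1.21, of P2rx7 from -1.24 to -0.72 and of Plcg2 from -1.10 to -0.43. Probes near background, among them Cacna1g in WT and Cacna1c, limit what these arrays can show.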
